A study of Mus musculus with 8 samples.

Results

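The mitochondrial respiratory complexes II, III, IV and V were examined through the nuclear genes of their subunits in the fat of mice carrying human IL-37. A gene was included if its only annotated symbol was Cyc1, Sdha, Sdhb, Sdhc or Sdhd, or began with Uqcr, Atp5, Cox4, Cox5, Cox6, Cox7 or Cox8. This gave 46 of the 18820 genes tested: 4 of complex II, 8 of complex III, 17 of complex IV and 17 of complex V. Uqcrc2 and Cox7c stood only on probe sets shared with another gene and were not analysed here, and none of the 6 subunits encoded in mitochondrial DNA had a probe set with a single annotated symbol. 16 of the 46 genes had more than 1 probe set, and of these the brightest on average was used.

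The tissue was epididymal white fat, a visceral depot attached to the epididymis, from males fed for 16 weeks on a diet with 45% of its energy from fat, after 2 weeks on one with 10%. 4 arrays came from IL37TG mice, which carry human IL37, a cytokine gene of the IL-1 family, on a C57BL/6 background, and 4 came from wild-type (WT) C57BL/6 mice bought from the Jackson Laboratories. The labels do not say whether WT mice were littermates of the transgenic ones, what drives the transgene, how old the mice were or whether each array is a separate mouse, so p-values reflect the spread among these arrays, which may be technical. Values were log2 expression levels per probe set.

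Complex II, succinate dehydrogenase, passes electrons from succinate to ubiquinone. Complex III passes them on to cytochrome c, and complex IV, cytochrome c oxidase, passes them to oxygen. Complexes III and IV pump protons across the inner membrane, and complex V, ATP synthase, uses their return to make ATP. White fat cells hold fewer mitochondria than brown ones, and several complex IV subunits exist as general isoforms and as isoforms of muscle, brown fat, lung or testis.

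The median probe set of an array was at 5.97 to 6.04, and correlations across genes, which are not independent replicates, were between 0.971 and 0.991 between groups. The tissue's own markers were present: the 14 measured adipocyte genes had mean log2 levels of 12.13 to 12.22 on IL37TG arrays and 11.95 to 12.10 on WT arrays. One array stood apart. On IL37TG replicate 4, all 9 measured testis and sperm genes were at their highest, 8 of them by more than 1 log2 unit over every other array, and their mean was 8.28, against 4.10 to 4.79 on the other IL37TG arrays and 4.14 to 4.66 on WT arrays. Macrophage genes were also lowest on that array. Where a named gene lost its call without that array, its value without it is given.

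Of the 46 genes, 4 rose in IL37TG fat and none fell (limma, Benjamini-Hochberg adjusted p at most 0.05 over all genes tested). They were Uqcr11 and Uqcrh of complex III and Atp5e and Atp5j2 of complex V. These are small subunits without a redox or catalytic centre. In bulk tissue, more cells of a type and more RNA per cell cannot be told apart. The share called higher was 8.70%, beside 2.07% of all genes, and 1.27% of all genes were called lower. At an unadjusted p of 0.05, 14 were higher and 1 was lower, a share of 30.4% higher beside 11.2% of all genes (9.42% were lower). The shares over all genes include dim genes, whereas of the 46 only Cox7b2 had a mean below the 25th percentile of gene means. Without IL37TG replicate 4, Uqcr11 (log2 0.55, limma adjusted p = 0.0451), Atp5e (0.60, 0.0264) and Atp5j2 (0.32, 0.0475) still passed and Uqcrh (0.32, 0.100) did not.

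The number of calls turned on single arrays. It was 6 higher and 1 lower without WT replicate 3, 2 higher without IL37TG replicate 1, 1 without WT replicate 1, 1 without WT replicate 2, and 0 without IL37TG replicate 2 or WT replicate 4. None of the 4 genes passed with the letter or the number of the array name as a block in the fit, where fewer degrees of freedom remain and 10 and 44 genes of all those tested were called higher. With the letter as a block the differences of Uqcr11, Uqcrh, Atp5e and Atp5j2 were 0.68, 0.31, 0.73 and 0.38 (limma adjusted p = 0.169, 0.459, 0.109 and 0.221), and with the number they were 0.57, 0.33, 0.55 and 0.32 (limma adjusted p = 0.0766, 0.105, 0.0735 and 0.0731). The differences kept their sign within letter G, the only letter that held both groups, and within numbers 5, 7 and 9. Within numbers 5, 7 and 9 they were 0.52, 0.46 and 0.71 for Uqcr11, 0.27, 0.23 and 0.47 for Uqcrh, 0.74, 0.40 and 0.55 for Atp5e, and 0.28, 0.30 and 0.36 for Atp5j2. The letter F stood on WT arrays only and H on IL37TG arrays only. The letter-block differences are therefore those within letter G, between IL37TG replicate 1 and WT replicates 3 and 4. What the letter and number record is not given in the sources used here.

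The 250 bases before the annotated start of these 4 genes are shown because they are the stretches next to the start of the genes that passed together. Sequences are from RefSeq, build GRCm38.p6, on the gene's own strand, here the minus strand for each. Capitals mark matches on either strand to the core of the GABPA site (CCGGAAGT) or to a CCAAT box (CCAAT). These were the motifs searched that occur in the 4 windows, beside those of NRF1 (GCATGCGC) and ERRA (AAGGTCA), factors known to bind promoters of respiratory genes.
Uqcr11 chr10:80406822-80407071: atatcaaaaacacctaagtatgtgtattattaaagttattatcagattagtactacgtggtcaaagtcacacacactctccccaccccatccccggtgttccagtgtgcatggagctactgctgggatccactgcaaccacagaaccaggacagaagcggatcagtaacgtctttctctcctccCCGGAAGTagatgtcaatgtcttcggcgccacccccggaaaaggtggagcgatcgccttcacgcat
Uqcrh chr4:116075071-116075320: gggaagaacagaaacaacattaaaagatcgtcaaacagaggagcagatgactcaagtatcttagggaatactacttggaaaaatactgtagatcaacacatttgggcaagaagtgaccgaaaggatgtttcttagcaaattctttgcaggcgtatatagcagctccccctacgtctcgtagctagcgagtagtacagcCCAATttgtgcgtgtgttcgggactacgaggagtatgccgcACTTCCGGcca
Atp5e chr2:174464102-174464351: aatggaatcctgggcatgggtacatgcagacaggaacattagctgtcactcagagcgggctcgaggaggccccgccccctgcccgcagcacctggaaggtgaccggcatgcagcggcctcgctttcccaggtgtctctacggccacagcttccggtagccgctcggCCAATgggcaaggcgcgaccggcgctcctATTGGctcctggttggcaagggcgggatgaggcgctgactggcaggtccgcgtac
Atp5j2 chr5:145191542-145191791: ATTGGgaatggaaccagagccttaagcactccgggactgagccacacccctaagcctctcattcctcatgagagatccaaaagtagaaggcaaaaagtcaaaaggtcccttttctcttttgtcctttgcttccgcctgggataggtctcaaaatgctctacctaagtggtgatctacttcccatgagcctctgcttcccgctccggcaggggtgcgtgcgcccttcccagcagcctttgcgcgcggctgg

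35 of the 46 genes had such windows, 38 in all. The median share of G and C was 54.6% in these windows, beside 52.4% in all windows. The GABPA core was in 3 of the 38 windows (7.89%), those of Atp5h, Uqcr11 and Uqcrh, beside 2.88% of the 32851 windows of all genes in the table. The NRF1 core was in 5 member windows (13.2%, beside 2.26% of all), those of Atp5g2, Atp5k, Atp5l, Cox6a1 and Sdhb, and in none of the 4 shown. A CCAAT box was in 21 (55.3%, beside 33.8%) and the ERRA core in 2 (5.26%, beside 4.08%). The GABPA and CCAAT matches do not overlap in the windows shown. A match says only that these letters are there.

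**Figure D1:**
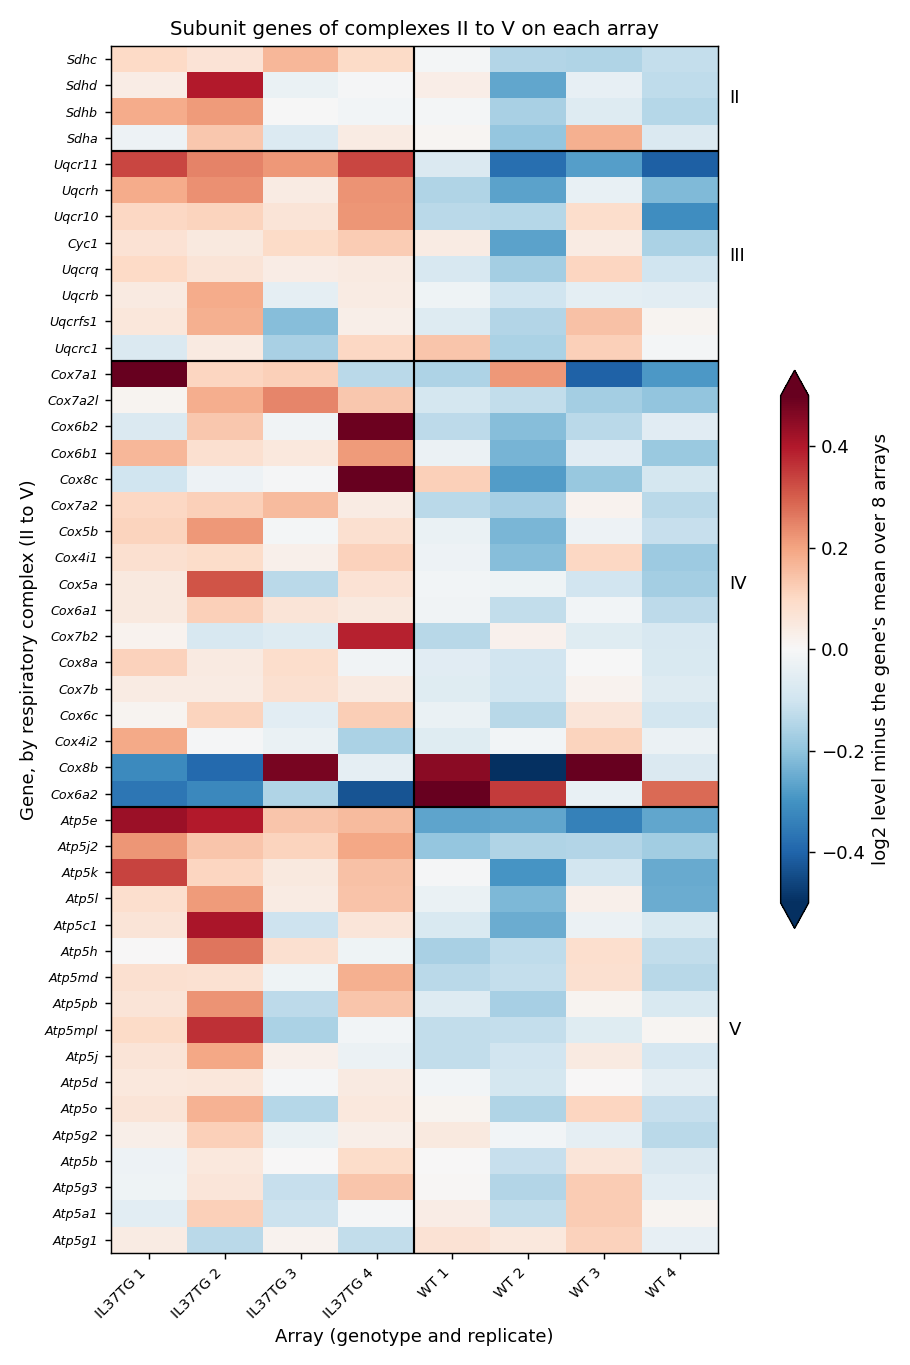
Each row is a gene, grouped by complex and ordered by its difference, and each column is an array, with the 4 IL37TG arrays left of the 4 WT arrays. Colour gives the log2 level minus the gene's own mean over the 8 arrays, so rows cannot be compared for their levels; WT replicate 2 was the lowest array for 25 of the 46 genes and IL37TG replicate 2 the highest for 17.

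Most of the remaining genes differed in the same direction by small amounts. The difference, IL37TG minus WT, was above 0 for 40 of the 46 genes (87.0%, beside 55.3% of all genes), and its median was 0.15 log2 units, beside 0.02 over all genes tested. The median was 0.19 for complex II, 0.15 for complex III, 0.15 for complex IV and 0.15 for complex V. The 6 genes below 0 were Uqcrc1, Cox4i2, Cox8b, Cox6a2, Atp5a1 and Atp5g1. The groups did not overlap for 14 genes that were higher (30.4%, beside 8.24% of all genes) and for 1 that was lower, Cox6a2 (5.73% of all genes).

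The arrays of a group were uneven. As the median over the 46 genes of the level minus the gene's own mean, IL37TG replicates 1 to 4 stood at 0.06, 0.12, -0.00032 and 0.07, and WT replicates 1 to 4 at -0.03, -0.15, -0.0014 and -0.11. IL37TG replicate 3 and WT replicate 3 thus stood nearly level with each other, between the high IL37TG arrays and the low WT ones. The number 5 of the array names is shared by 1 array of each group, 7 and 9 by 3 arrays each, and the letter G by IL37TG replicate 1 and WT replicates 3 and 4. The median difference over the 46 genes was 0.13 within number 5, 0.08 within number 7, 0.21 within number 9 and 0.12 within letter G, with 33, 33, 43 and 38 genes above 0. Over all genes tested the medians within the same arrays were 0.06, 0.0081, 0.0025 and 0.04.

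**Figure D2:**
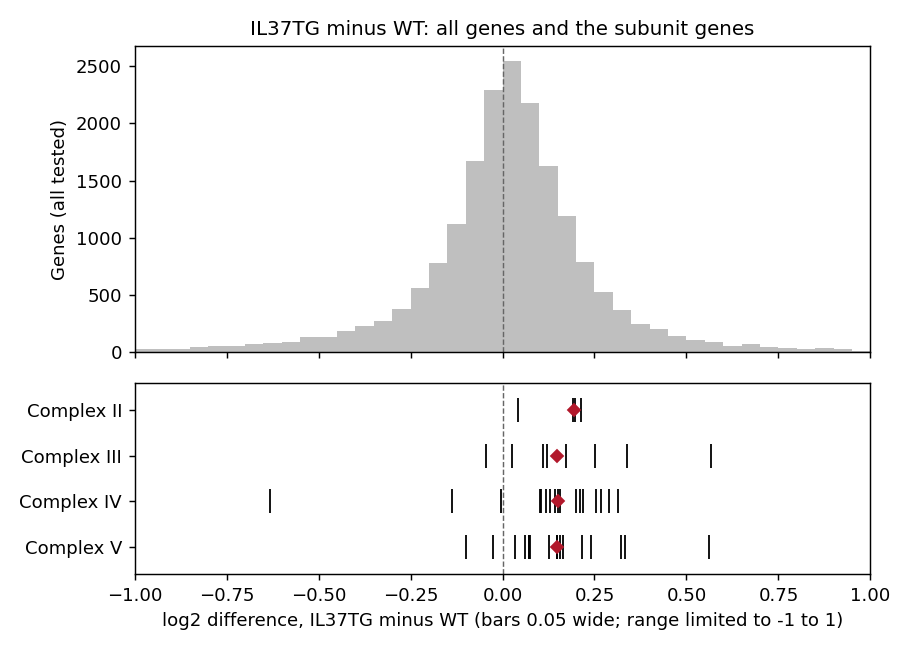
The upper panel counts the genes tested by their log2 difference, IL37TG minus WT, within the range of the axis. Genes beyond that range, which reach -4.15 and 4.71, are not shown. The lower panel shows each subunit gene as a tick and the median of its complex as a diamond; the medians lie between 0.15 and 0.19, and the ticks of Uqcr11 and Atp5e lie farthest to the right.

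Complex II had 4 genes, all with a higher mean in IL37TG fat, but none passed over all genes tested (limma). Of the 4, 2 were higher at an unadjusted p of 0.05 (50%, beside 11.2% of all genes). Sdhc and Sdhd encode the membrane subunits that hold ubiquinone. Sdhc was at 10.33, 10.29, 10.39 and 10.32 on the IL37TG arrays, against 10.21, 10.08, 10.07 and 10.11 on the WT arrays. Every IL37TG array was above every WT array. The difference was 0.21 (SE 0.05), with a limma adjusted p of 0.0757. Sdhd was at 9.52, 9.88, 9.45 and 9.48 on IL37TG arrays and 9.51, 9.22, 9.44 and 9.36 on WT arrays. Its groups overlapped, and IL37TG replicate 2 alone lay well above the rest (difference 0.20, SE 0.11, limma adjusted p = 0.353).

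Sdhb encodes the iron-sulfur subunit of complex II and Sdha the flavoprotein that oxidises succinate. Sdhb averaged 9.85 ± 0.12 in IL37TG fat and 9.66 ± 0.07 in WT fat (SD, n = 4 each), a difference of 0.19 (limma adjusted p = 0.192). Sdha averaged 11.11 ± 0.09 in IL37TG fat and 11.07 ± 0.16 in WT fat (SD, n = 4 each). Its difference of 0.04 had a 95% confidence interval of -0.16 to 0.24, and it changed sign without WT replicate 2, to -0.02. Of the 4 assembly factors of this complex, 1 rose (25%, beside 2.07% of all genes). This was Sdhaf4, which helps fit flavin-loaded Sdha to Sdhb (log2 0.57, SE 0.12, limma adjusted p = 0.0455). It was at 7.60, 7.80, 7.24 and 7.46 on IL37TG arrays and 6.97, 7.07, 6.81 and 6.98 on WT arrays, with no overlap. The Sdhaf4 call passed in only 1 of the 8 fits that left out an array (limma adjusted p = 0.0818 without IL37TG replicate 4).

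In complex III, 2 of the 8 genes rose (25%, beside 2.07% of all genes) and none fell. The unadjusted limma p was at most 0.05 for 3 higher genes (37.5%, beside 11.2% of all genes) and no lower one. Uqcr11 encodes the smallest subunit of the complex. Its levels were 10.92, 10.83, 10.80 and 10.92 on the IL37TG arrays, against 10.51, 10.21, 10.31 and 10.18 on the WT arrays. The lowest IL37TG array lay above the highest WT array. Uqcr11 was 1.48-fold higher (95% confidence interval 1.30 to 1.69; log2 0.57, SE 0.08, limma adjusted p = 0.0170). Its second probe set, not used in the fit, differed by 0.75, the widest disagreement between probe sets of any member, and in the same direction.

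Uqcrh, the hinge protein that helps cytochrome c dock on cytochrome c1, was at 11.05, 11.09, 10.91 and 11.09 on the IL37TG arrays and 10.71, 10.60, 10.83 and 10.64 on the WT arrays. The groups did not overlap, but IL37TG replicate 3 and WT replicate 3 lay close to each other. Uqcrh was 1.27-fold higher (log2 0.34, SE 0.07, limma adjusted p = 0.0462), a value near the threshold. Its call was kept only without IL37TG replicate 3 (adjusted p = 0.0436) or WT replicate 3 (adjusted p = 0.0237), and the adjusted p lay between 0.100 and 0.135 without any other single array. The Uqcr11 call was lost without IL37TG replicate 2 (adjusted p = 0.0516), WT replicate 2 (0.0503) or WT replicate 4 (0.0632).

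The other 6 genes of complex III did not pass. Uqcr10, another small subunit, averaged 9.30 ± 0.07 in IL37TG fat and 9.05 ± 0.16 in WT fat (SD, n = 4 each; difference 0.25, limma adjusted p = 0.154). It passed without WT replicate 3, at 0.32 (limma adjusted p = 0.0431), an array with its highest WT level. Cyc1, cytochrome c1, had groups that did not overlap (lowest IL37TG array 10.21, highest WT array 10.20) and a difference of 0.17 (limma adjusted p = 0.271). Uqcrb and Uqcrq, both next to the ubiquinone site, differed by 0.11 and 0.12. The Rieske iron-sulfur protein gene Uqcrfs1 was at 7.95 ± 0.16 in IL37TG fat and 7.92 ± 0.12 in WT fat (SD, n = 4 each), a difference of 0.02 whose sign changed without IL37TG replicate 2 or WT replicate 2. The core protein gene Uqcrc1 differed by -0.04 (95% confidence interval -0.25 to 0.16).

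**Figure D3:**
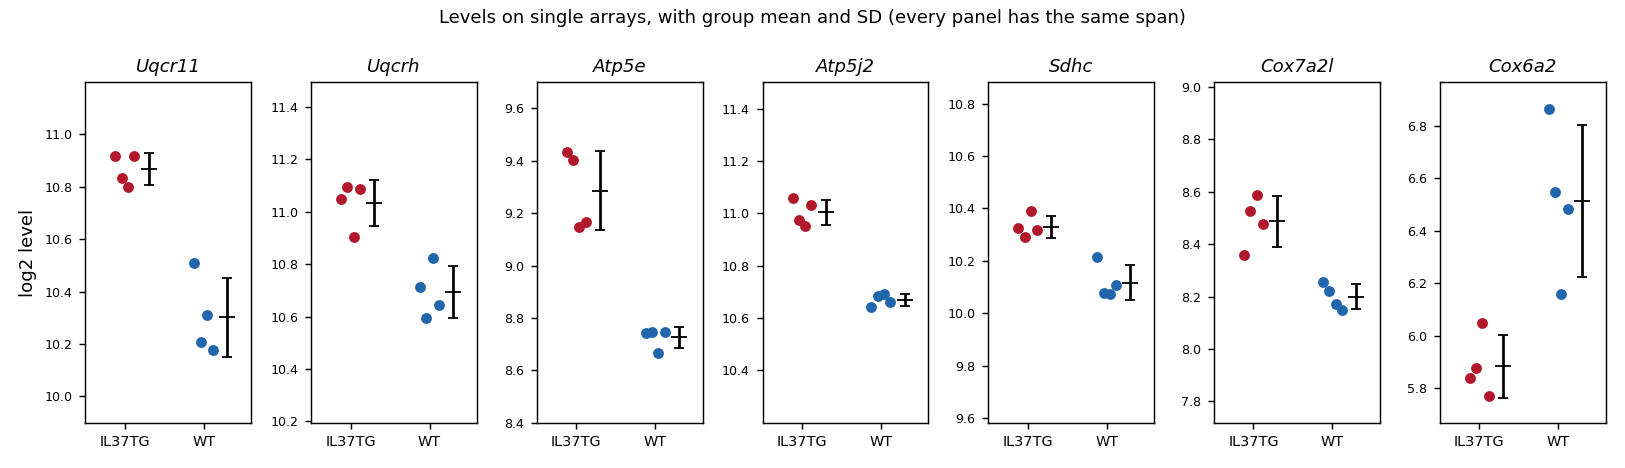
Points are single arrays, IL37TG left of WT in each panel, with the group mean and SD beside them, on log2 scales of equal span. The 4 genes on the left passed the test; Sdhc, Cox7a2l and Cox6a2 had groups that did not overlap but did not pass.

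No gene of complex IV passed over all genes tested in either direction (limma). Of the 17, 5 were higher (29.4%, beside 11.2% of all genes) and 1 was lower at an unadjusted p of 0.05. 2 genes narrowly missed the threshold. Cox7a2l, also called SCAF1, joins complexes III and IV into supercomplexes, and C57BL/6 mice are known to carry a short form of it. It was at 8.36, 8.53, 8.59 and 8.48 on the IL37TG arrays, against 8.25, 8.22, 8.17 and 8.15 on the WT arrays, with no overlap. The difference was 0.29 (SE 0.06, limma adjusted p = 0.0509). Its second probe set, not used in the fit, differed by 0.24 with groups that overlapped. With the mean of its probe sets the difference was 0.26 (limma adjusted p = 0.0961).

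Cox6a2, the subunit isoform of heart and skeletal muscle, was the one member with a wholly lower IL37TG group. Its levels were 5.84, 5.88, 6.05 and 5.77 on the IL37TG arrays and 6.87, 6.55, 6.16 and 6.48 on the WT arrays. WT replicate 3 came nearest to the IL37TG arrays. The difference was -0.63 (SE 0.14, limma adjusted p = 0.0525), and without WT replicate 3, its lowest WT array, it was -0.75 (limma adjusted p = 0.0149). The general isoform Cox6a1 averaged 10.51 ± 0.03 in IL37TG fat and 10.37 ± 0.07 in WT fat (SD, n = 4 each; difference 0.14, limma adjusted p = 0.181).

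Genes of skeletal muscle were counted beside Cox6a2. Of 13, Acta1, the skeletal muscle actin, rose (log2 0.72, SE 0.11, limma adjusted p = 0.0206) and none fell. The share called higher was 7.69%, beside 2.07% of all genes. The mean log2 level of the 13 genes was 4.91 to 4.95 on IL37TG arrays and 4.75 to 4.91 on WT arrays. The sum of their linear levels, as log2, was 9.26 to 9.56 on IL37TG arrays and 9.002 to 9.08 on WT arrays. Acta1 passed in 3 of the 8 fits without an array, had a limma adjusted p of 0.0505 without IL37TG replicate 4, and passed with none of the 3 blocks (adjusted p = 0.334, 0.0541 and 0.0945). The sum of the other 12 genes was 8.35 to 8.41 on IL37TG arrays and 8.21 to 8.38 on WT arrays, which overlap. 4 of the 13 had means below 4.49, the 25th percentile of all gene means.

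Cox7a1 and Cox8b, isoforms shared by muscle and brown fat, varied widely within groups. Cox7a1 was at 7.99, 7.56, 7.57 and 7.32 on the IL37TG arrays and 7.30, 7.67, 7.05 and 7.17 on the WT arrays. Its difference of 0.31 (SE 0.17, limma adjusted p = 0.342) came with groups that overlapped. Cox8b was at 8.75, 8.68, 9.55 and 9.02 on IL37TG arrays and 9.52, 8.39, 9.65 and 8.997 on WT arrays, spread over more than 1 log2 unit in WT fat. Its difference was -0.14 (95% confidence interval -0.83 to 0.55, limma adjusted p = 0.836), and 0.03 without WT replicate 3.

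Of 10 brown and beige fat genes, Otop1, a proton channel gene of brown fat, fell (log2 -1.50, SE 0.19, limma adjusted p = 0.00979) and none rose. Of all genes, 1.27% were called lower. At an unadjusted limma p of 0.05, 2 of the 10 were lower (9.42% of all genes were) and none higher, and 7 differed below 0. Otop1 passed in all 8 fits without an array and lost its call with the letter block (limma adjusted p = 0.156). The sum of their linear levels, as log2, was 9.12 to 9.58 on IL37TG arrays and 9.51 to 9.95 on WT arrays. Ucp1, the uncoupling protein that defines brown fat, had a mean of 3.63 on IL37TG arrays and 4.05 on WT arrays, both below 4.49, with a single array above it, WT replicate 1 at 4.88. Whether brown fat cells bear on Cox6a2, Cox7a1 or Cox8b was not tested, nor whether muscle cells do.

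The testis isoforms of complex IV were highest on a single array. Cox6b2 was at 5.38, 5.59, 5.44 and 5.94 on the IL37TG arrays, against 5.32, 5.24, 5.32 and 5.40 on the WT arrays. Cox8c was at 4.996, 5.07, 5.09 and 5.66 on the IL37TG arrays, against 5.21, 4.81, 4.91 and 5.005 on the WT arrays. Cox7b2 was at 3.26, 3.16, 3.17 and 3.62 on the IL37TG arrays, against 3.10, 3.26, 3.18 and 3.16 on the WT arrays. All 3 were highest on IL37TG replicate 4, the array with the high testis and sperm genes, among them Prm1 (11.97), Ldhc (9.02) and Akap4 (7.58).

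With all arrays the 3 testis isoforms differed by 0.27, 0.22 and 0.13, and without IL37TG replicate 4 by 0.15, 0.07 and 0.02. Cox7b2 had a mean below 4.49, the one dim member. Leaving these 3 genes out, the median of the remaining 43 members was 0.15, with 37 above 0. The 8 measured genes of epididymal epithelium had mean log2 levels of 3.65 to 3.93 on IL37TG arrays and 3.65 to 4.04 on WT arrays.

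**Figure D4:**
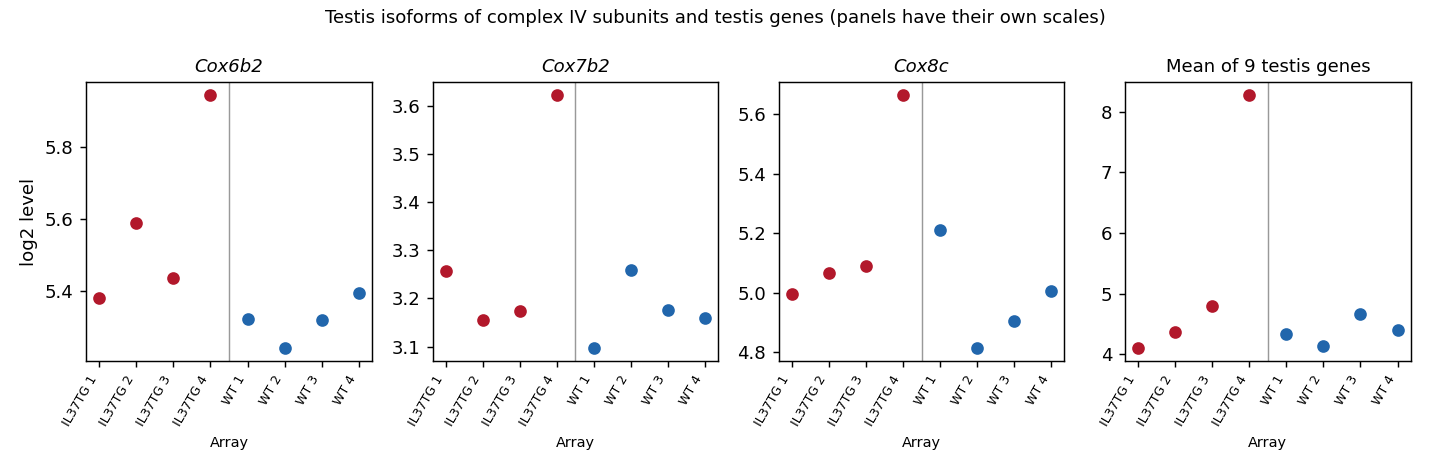
Log2 levels of the 3 testis isoforms and the mean log2 level of 9 testis and sperm genes on each array, IL37TG arrays left of WT arrays, with a scale of its own in each panel. IL37TG replicate 4 is the highest point in every panel.

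The general subunits of complex IV were close to one another in their differences. Cox6b1, which faces the space between the membranes, averaged 11.38 ± 0.07 in IL37TG fat and 11.12 ± 0.10 in WT fat (SD, n = 4 each), with no overlap (difference 0.25, limma adjusted p = 0.0842). Cox7a2 averaged 10.21 ± 0.05 in IL37TG fat and 10.00 ± 0.08 in WT fat (SD, n = 4 each), also apart (difference 0.21, limma adjusted p = 0.0972). Cox5b (0.20), Cox4i1 (0.16), Cox5a (0.15), Cox8a (0.12), Cox7b (0.10) and Cox6c (0.10) differed by less. Cox4i2, the isoform of lung and of cells short of oxygen, was at 6.87 ± 0.14 in IL37TG fat and 6.88 ± 0.08 in WT fat (SD, n = 4 each; 95% confidence interval of the difference -0.19 to 0.19).

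**Figure D5:**
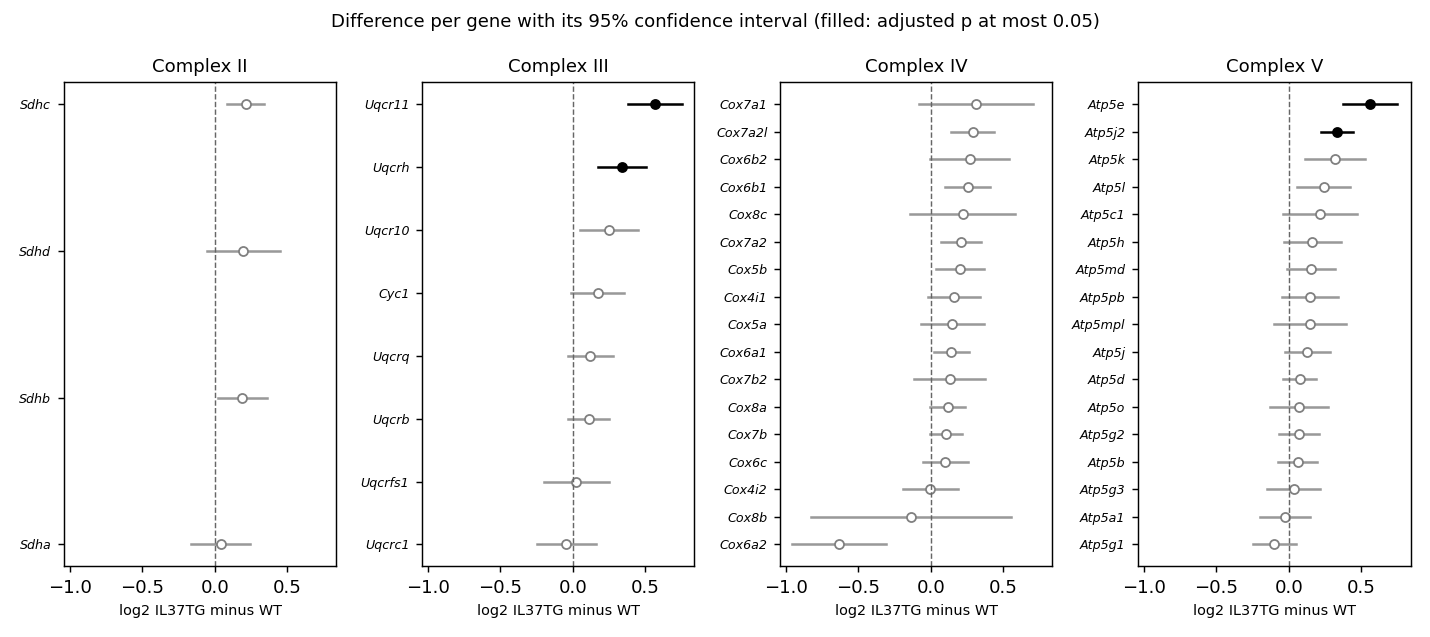
Points are log2 differences, IL37TG minus WT, and lines their 95% confidence intervals from limma, in a panel per complex; filled points passed at an adjusted p of at most 0.05. Uqcr11, Uqcrh, Atp5e and Atp5j2 are filled, and Cox6a2 is the one gene whose interval lies wholly below 0.

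In complex V, 2 of the 17 genes rose (11.8%, beside 2.07% of all genes) and none fell. The unadjusted limma p was at most 0.05 for 4 higher genes (23.5%, beside 11.2% of all genes) and no lower one. Atp5e encodes the epsilon subunit of the central stalk, which turns inside the catalytic head. It was at 9.43, 9.40, 9.15 and 9.17 on the IL37TG arrays, against 8.74, 8.75, 8.67 and 8.75 on the WT arrays. The WT arrays lay close together, and IL37TG replicates 1 and 2 lay above replicates 3 and 4. Atp5e was 1.47-fold higher (95% confidence interval 1.30 to 1.67; log2 0.56, SE 0.08, limma adjusted p = 0.0163).

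Atp5j2 encodes subunit f of the membrane part. Its levels were 11.06, 10.98, 10.95 and 11.03 on the IL37TG arrays and 10.64, 10.69, 10.69 and 10.66 on the WT arrays, both tight groups that lay apart. Atp5j2 was 1.26-fold higher (log2 0.33, SE 0.05, limma adjusted p = 0.0180). The Atp5e call was lost without IL37TG replicate 2 (adjusted p = 0.0515), WT replicate 1 (0.0539) or WT replicate 4 (0.0632). The Atp5j2 call was lost without any of 5 arrays (adjusted p between 0.0509 and 0.0712), namely IL37TG replicates 1 and 2 and WT replicates 1, 2 and 4. The differences themselves moved little: without any single array Atp5e lay between 0.51 and 0.61, and Atp5j2 between 0.31 and 0.35.

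Atp5k and Atp5l, subunits e and g, sit beside subunit f and help ATP synthase pair into dimers. Atp5k was at 7.58, 7.35, 7.29 and 7.39 on the IL37TG arrays and 7.24, 6.95, 7.15 and 6.99 on the WT arrays, with no overlap (difference 0.32, SE 0.09, limma adjusted p = 0.0936). Atp5l had 6 probe sets, whose differences lay between 0.19 and 0.24, and the one used had groups apart (0.24, limma adjusted p = 0.139). The stator genes Atp5h, Atp5j, Atp5pb and Atp5o differed by 0.16, 0.13, 0.15 and 0.07. Atp5md and Atp5mpl, small membrane subunits, differed by 0.16 and 0.15.

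The catalytic head of ATP synthase differed little. Atp5a1 and Atp5b encode its alpha and beta subunits, and their differences were -0.03 (95% confidence interval -0.20 to 0.14) and 0.06 (-0.08 to 0.20). Atp5b was at 12.47 ± 0.05 in IL37TG fat and 12.41 ± 0.08 in WT fat (SD, n = 4 each). The stalk subunit genes Atp5c1 and Atp5d differed by 0.22 and 0.07. Atp5g1, Atp5g2 and Atp5g3 encode the same c subunit of the rotor, and they differed by -0.10, 0.07 and 0.03. Atp5g3 was -0.0085 without IL37TG replicate 4 and -0.010 without WT replicate 2.

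Probe sets not used in the fit gave the same signs. The 16 genes with several probe sets had 25 others, and all 25 differed in the direction of the one used. Probe sets of a gene can read the same or closely related transcripts, including processed copies elsewhere in the genome, so they are not independent measurements.

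Genes that build or feed these complexes were counted in the same fit. Of 34 complex I subunit genes 5 rose (14.7%, beside 2.07% of all genes) and none fell. The unadjusted limma p was at most 0.05 for 17 higher genes (50%, beside 11.2% of all genes) and no lower one. All 34 had a difference above 0, and their median was 0.19. Ndufa7 (log2 0.39, limma adjusted p = 0.0227), Ndufb7 (0.44, 0.0288), Ndufa12 (0.29, 0.0440) and Ndufs3 (0.32, 0.0454) had the lowest p. Of 24 complex IV assembly factors 2 rose (8.33%) and none fell, but 11 lay below 0 and their median was 0.01. Surf1, which acts early in building the catalytic subunit, was at 9.71, 9.98, 9.69 and 9.87 on the IL37TG arrays and 9.36, 9.22, 9.35 and 9.28 on the WT arrays (log2 0.51, SE 0.08, limma adjusted p = 0.0198). Coa3, a partner of the newly made Cox1 protein, rose by 0.35 (SE 0.07, limma adjusted p = 0.0347).

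None of the 6 complex III assembly factors passed (limma), nor any of the 5 of complex V. At an unadjusted p of 0.05, 1 gene of each list was higher (16.7% and 20%, beside 11.2% of all genes). Of 19 genes of cytochrome c and the ubiquinone pool, Sqor, which feeds electrons from sulfide to ubiquinone, rose (log2 0.61, SE 0.13, limma adjusted p = 0.0486) and none fell. The share called higher was 5.26%, beside 2.07% of all genes. Cycs, the cytochrome c that carries electrons between complexes III and IV, differed by -0.04 (limma adjusted p = 0.774). None of 7 heme synthesis genes passed. At an unadjusted limma p of 0.05, 4 of them were higher (57.1%, beside 11.2% of all genes) and none lower. The calls of Sqor, Ndufa12 and Ndufs3 each passed in 1 of the 8 fits without an array, those of Coa3 and Ndufb7 in 2, that of Ndufa7 in 3 and that of Surf1 in 4. Without IL37TG replicate 4, 1 of the 9 calls in these lists was left, Ndufa7 (limma adjusted p = 0.0465), and the adjusted p was 0.0505 for Surf1, 0.0566 for Coa3, 0.0678 for Ndufb7, 0.0928 for Ndufa12, 0.0960 for Ndufs3 and 0.102 for Sqor. None of the 9 passed with a block.

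Regulators of mitochondrial gene expression and genes used as markers of mitochondrial mass did not pass. These are RNA levels, and mitochondrial mass itself was not measured here. Of 16 regulators, 1 was higher (6.25%, beside 11.2% of all genes) and 3 were lower (9.42% of all genes were) at an unadjusted p of 0.05. None passed the adjusted threshold (limma), and the median difference of the 16 was -0.02. Ppargc1a, the coactivator PGC-1 alpha that drives mitochondrial biogenesis, was at 6.65, 6.999, 6.87 and 6.98 on the IL37TG arrays and 7.50, 6.79, 8.02 and 7.49 on the WT arrays. Its groups overlapped through WT replicate 2 (difference -0.58, limma adjusted p = 0.206). Tfam (0.05), Esrra (0.08) and Nrf1 (-0.12) had limma adjusted p of 0.752, 0.640 and 0.223. Of 18 genes of mitochondrial mass and protein import none passed, and the median was 0.02. At an unadjusted limma p of 0.05, 2 of them were higher (11.1%, beside 11.2% of all genes). Cs, citrate synthase, differed by -0.06 (95% confidence interval -0.22 to 0.09).

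Markers of cell types moved beside the subunit genes. Of 14 adipocyte genes, Slc2a4 (log2 0.74, limma adjusted p = 0.0188) and Adipoq (0.30, 0.0309) rose (14.3%, beside 2.07% of all genes) and none fell. Of the 14, 6 were higher at an unadjusted limma p of 0.05 (42.9%, beside 11.2% of all genes) and none lower. Without IL37TG replicate 4 Slc2a4 passed (limma adjusted p = 0.0467) and Adipoq did not (0.0657). Slc2a4 passed in 4 and Adipoq in 1 of the 8 fits without an array, and neither with a block. The sum of their linear levels, as log2, was 16.12 to 16.21 on IL37TG arrays and 16.02 to 16.13 on WT arrays. Of 12 macrophage genes, Cx3cr1 (-0.63, limma adjusted p = 0.0231), Trem2 (-2.02, 0.0454) and Fcgr1 (-1.09, 0.0469) fell and none rose (1.27% of all genes were called lower). None of the 3 passed without IL37TG replicate 4, the array with the lowest macrophage mean (limma adjusted p = 0.0566 for Cx3cr1, 0.0912 for Trem2 and 0.0982 for Fcgr1). Cx3cr1 passed in 2 and Trem2 and Fcgr1 in 1 of the 8 fits without an array, and of the 3 only Cx3cr1 passed with a block, that of the replicate number (adjusted p = 0.0403). All 12 macrophage genes differed below 0, with a median of -0.71. Of them, 9 were lower at an unadjusted limma p of 0.05 (9.42% of all genes were). The list's summed level was 13.13 to 13.52 on IL37TG arrays and 13.40 to 14.28 on WT arrays. WT replicate 3 was the lowest WT array. None of the markers of either list had a mean below 4.49. The part of these markers in the subunit differences was not tested.

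Of the other cell types, no gene of 8 progenitor and fibroblast, 6 endothelial, 5 mesothelial, 6 lymphocyte, 8 epididymal or 9 testis genes passed (limma). At an unadjusted p of 0.05, 2 progenitor genes were lower (9.42% of all genes were). At the same p, 1 lymphocyte gene and 1 testis gene were higher (16.7% and 11.1%, beside 11.2% of all genes).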

How the data were processed

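RNA of epididymal fat from 4 IL37TG and 4 WT samples was measured on single-colour whole-transcript arrays. The authors deposited log2 expression values per probe set, made by RMA per the submitters' processing notes. RMA corrects background, quantile normalises and summarises probes, so a global shift between arrays would be removed. Of 35556 probe sets, 21218 had 1 gene symbol, 1881 several and 12457 none; only the first kind was named. Symbols were updated through Entrez identifiers (21185 matched, 0 renamed). For each of 18820 genes the probe set with the highest mean was kept. Detection calls were not used here, so genes with means below 4.49, the 25th percentile of gene means, are described as dim. Precision is limited by how many arrays there are.

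IL37TG was set against WT with lmFit and eBayes of limma 3.58.1, under R 4.3.3 (no covariates, Benjamini-Hochberg adjustment over all genes, threshold 0.05). A run on simulated data checked the code, not the calls reported here. Tables and figures were made with Python 3.11.15, pandas 2.3.3, numpy 2.4.6 and matplotlib 3.10.9. The genes examined and the gene lists were chosen with earlier results of these data known. Genes were named by a rule: members past the threshold, the 3 with the lowest p in each complex, the isoform pairs of complex IV, the members with the highest and lowest mean level of each complex, genes of other lists past the threshold (at most 4), and Ppargc1a, Tfam, Nrf1, Esrra, Cs and Cycs. The remaining members and marker genes named were added after their values were seen. Promoter windows came from RefSeq on GRCm38.p6. Alternatives were another normalisation or centring, a filter on dim genes, the mean of all probe sets, symbols as annotated, a trended prior, array weights, 3 blocks and leaving out each array.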

Additional observations from a re-analysis of the deposited data

Results flagged for a closer look

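12 of 164 groups of 4 arrays, covering all 46 subunit genes, 21 other named genes, the complexes and the marker lists, held an array farther from the rest than Dixon's critical value allows (7.32%); chance flags about 5% of groups. Among the subunit genes, Atp5e was low on WT replicate 3 (8.67, against 8.74 to 8.75 on the other WT arrays). On that array Atp5h (10.87, against 10.63 to 10.67), Atp5md (11.71, against 11.49 to 11.51) and Cox7a2 (10.13, against 9.94 to 9.97) were high. Cox8c was high on IL37TG replicate 4 (5.66, against 4.996 to 5.09) and Sdhd was high on IL37TG replicate 2 (9.88, against 9.45 to 9.52). Otop1 was high on IL37TG replicate 3 (7.59, against 6.75 to 6.88). Among the means of marker lists, testis and sperm genes were high on IL37TG replicate 4 (8.28, against 4.10 to 4.79) and macrophage genes low on it (8.57, against 9.001 to 9.08). Epididymal epithelium genes were high on IL37TG replicate 3 (3.93, against 3.65 to 3.69) and mesothelial genes low on it (7.89, against 8.50 to 8.53). Progenitor and fibroblast genes were high on IL37TG replicate 2 (10.07, against 9.74 to 9.78).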

How the results depend on the processing

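The median difference over the subunit genes stayed between 0.12 and 0.18 under the 18 alternatives run, but the calls did not. Of 827 pairs of a subunit gene and an alternative, over all 46 genes, 762 kept direction and side of the threshold, 30 lost the call, 12 gained one and 23, in 9 genes, changed sign. Of 378 such pairs for 21 other named genes, 246 kept both and 132, in 15 genes, lost the call. The alternatives for these 21 and for the subunit genes outside the naming rule were added after seeing the data. The number of subunit genes called higher (4) was 7 with array weights and 0 with the replicate, letter or number block, and 0 to 6 without single arrays. The number called lower (0) was 1 with the filter on dim genes, 1 with the trended prior and 1 with array weights, each time Cox6a2, and 0 to 1 without single arrays. Over all genes, 522 were called higher and 347 lower with the filter on dim genes, and 724 and 539 with array weights. The counts were 40 and 53 with the replicate block, 10 and 60 with the letter block and 44 and 28 with the number block. Without single arrays they were 50 to 520 and 32 to 668. Other pathway genes called higher (9), a count whose alternatives were added after seeing the data, numbered 17 with array weights, 0 with each block and 0 to 11 without single arrays. Blocks and left-out arrays leave fewer degrees of freedom, and the letter block compares only IL37TG replicate 1 with WT replicates 3 and 4. No further cause was tested.

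Replicate numbers did not pair the samples: deviations of same-numbered arrays correlated at 0.0941, 0.102, 0.0892 and 0.0566, and 1 of 4 IL37TG and 1 of 4 WT arrays correlated best with its own number. With the replicate block the limma adjusted p was 0.0677 for Uqcr11, 0.146 for Uqcrh, 0.0658 for Atp5e and 0.0928 for Atp5j2.

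None of the 9 genes that changed sign had passed the test. With the letter block Atp5b was -0.021, Atp5g1 0.0027, Atp5g3 -0.059, Sdha -0.076, Uqcrfs1 -0.024 and Cox4i2 0.15, and with the number block Cox8b was 0.022. After a second quantile normalisation Atp5g3 was -0.0036. Cox4i2 was 0.00024 after that step, 0.0039 after centring and 0.055 with array weights. Without single arrays Atp5a1 lay between -0.072 and 0.012, Atp5g3 between -0.010 and 0.080, Uqcrc1 between -0.10 and 0.0036, Cox4i2 between -0.067 and 0.049, Cox8b between -0.39 and 0.033, Sdha between -0.017 and 0.11 and Uqcrfs1 between -0.030 and 0.10. The causes were not tested. Uqcrh also lost its call after a second quantile normalisation (0.31, limma adjusted p = 0.0558). Gains outside left-out arrays were Cox7a2l and Cox6a2 (filter, trended prior and weights), Sdhc (trended prior), and Cox6b1 and Cox7a2 (weights).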
